A study of Mus musculus with 6 samples.

Results

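The genes described here were the 9 myeloid lineage transcription factors Spi1, Cebpa, Cebpb, Cebpd, Cebpe, Gfi1, Runx1, Klf4 and Myb, listed by name with earlier results of these data known, out of 24965 genes in the deposited expression table. All 9 exceeded 1 FPKM (fragments normalised to transcript length and library size) in at least 1 library, the filter that left 13739 genes for testing. RNA was sequenced from donor hematopoietic stem and progenitor cells (HSPCs) recovered from the recipients 6 h post-BMT (bone marrow transplantation), with 3 WT and 3 Hemgn-/- libraries. The donors were CD45.2+ young adult mice, either WT or carrying a whole-body disruption of Hemgn made with zinc finger nucleases on a C57BL/6 background. Both groups of donor bone marrow went into CD45.1+ recipients that had received 9 Gy in fractions of 4.5 Gy, so irradiated hosts and 6 h of homing were common to all 6 libraries, and no library represents cells before transplantation. The sample labels describe the sorted cells as CD45.2+ Lin-Sca-1+ cells, whereas the series' design text adds c-Kit to the gate. The study's methods call the replicates biological, but the labels do not say whether they came from separate recipients, so p-values measure the spread between these libraries, which may be partly technical.

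Myeloid differentiation is directed by a small network of transcription factors. Spi1 encodes PU.1, the ETS factor that opens myeloid enhancers, and Cebpa encodes the C/EBP factor that commits progenitors to the granulocyte and monocyte fate. Cebpe acts later, in the promyelocyte to myelocyte stages at which secondary granule proteins are made, while Cebpb and Cebpd are inducible family members known from stress and inflammatory signalling. Gfi1 is a zinc finger repressor needed for neutrophil development, Klf4 is a zinc finger factor linked to monocyte differentiation, and Runx1 and Myb act in stem and progenitor cells, where Myb sustains proliferation and declines as myeloid cells mature.

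The C/EBP members are separate genes with closely related coding sequence, which bears on how short reads can be assigned to them. The stretch of 90 coding bases below, from the part that encodes the basic leucine zipper, is shown because it is where Cebpa, Cebpb and Cebpe are most alike. It was read from the GENCODE M21 transcripts of GRCm38, and capitals mark the 70 bases identical in these 3 genes.
Cebpa: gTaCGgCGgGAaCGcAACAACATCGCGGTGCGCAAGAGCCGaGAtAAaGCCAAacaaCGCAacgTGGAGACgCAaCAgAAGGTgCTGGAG
Cebpb: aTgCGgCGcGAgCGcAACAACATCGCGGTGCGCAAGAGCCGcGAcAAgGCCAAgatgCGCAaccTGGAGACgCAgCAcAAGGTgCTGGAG
Cebpe: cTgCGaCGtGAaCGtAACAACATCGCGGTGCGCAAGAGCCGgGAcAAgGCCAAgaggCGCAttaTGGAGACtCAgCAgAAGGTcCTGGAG
The stretch lies in the coding exon at chr7:35120280-35120369 (plus strand) for Cebpa, at chr2:167689700-167689789 (plus strand) for Cebpb and at chr14:54710671-54710760 (minus strand) for Cebpe. Within it, Cebpa shared 72 and Cebpb 77 of the bases with Cebpe. Over whole transcripts, the longest run that a gene shared exactly with another of the 3 was 29 bases for Cebpa and Cebpb and 26 for Cebpe. These runs are shorter than the 150-base reads.

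The libraries held 23667961 to 28896718 fragments, as recovered from whole steps between low FPKM values. Hemgn, the disrupted gene (ENSMUSG00000028332), was measured at 5.64, 2.96 and 4.68 FPKM in WT and, in Hemgn-/- libraries, at 0.75, 0.91 and 1.6 FPKM, a log2 fold change of −1.37 ± 0.23 (SE; adjusted p = 0.0114, limma with Benjamini-Hochberg adjustment). Without WT replicate 3 the adjusted p was 0.0503. The groups did not overlap for Hemgn, although transcript remained in every Hemgn-/- library. Transcripts of the gate markers were low in all libraries beside the neutrophil marker sum given below, but not beside the typical gene. For scale, a WT mean of 4.05 FPKM (Klf4) was above that of 49.8% of all genes tested. Ly6a, which encodes the Sca-1 of the labels, was at 8.27 to 17.3 FPKM. Kit, which encodes the c-Kit added by the design text, was at 5.50 to 7.24 FPKM. Mecom, a listed HSPC marker that is in neither gate, was under 1 FPKM throughout. The 14 HSPC markers summed to 46.5 to 51.6 FPKM in WT and 58.1 to 67.1 FPKM in Hemgn-/- libraries, and 2 of the 13 tested were higher in Hemgn-/- libraries (Cd34 and Cd48), a count that was 0 under median-ratio scaling, quantile normalization or the replicate block and 0 or 1 with any library left out. By contrast, 17 markers of neutrophils and their precursors summed to 79638 to 85608 FPKM in WT and 53109 to 58791 FPKM in Hemgn-/- libraries, and 7 of the 17 were lower and 1 (Cxcr2) higher. Among all genes tested, 2.09% were lower and 4.37% higher. The neutrophil marker sum was thus far above the HSPC marker sum in every library, and it was lower in Hemgn-/- libraries. Sums over different genes are not shares of cells, and the purity of the sort was not tested. The members' values below are therefore levels in bulk RNA and cannot be assigned to purified HSPCs. In bulk RNA, fewer cells of a type and less RNA per cell cannot be told apart. WT replicate 2 stood apart, with 88 genes at least 2-fold above all the other libraries on the FPKM + 1 scale, against 29 to 45 such genes in the others.

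Of the 9 members, Spi1 and Cebpe were lower in Hemgn-/- libraries at an adjusted p under 0.05 and none was higher, where 6.46% of all genes tested passed that threshold (2.09% lower and 4.37% higher). At an unadjusted p under 0.05 with at least a 1.5-fold change, Spi1, Cebpe and Cebpd were lower and Klf4 was higher, against 6.83% of all genes tested (2.74% lower and 4.10% higher). The groups did not overlap for 5 members that were lower (Spi1, Cebpe, Cebpd, Cebpb and Myb) and for 1 that was higher (Klf4), against 27.4% of all genes tested (8.18% lower and 19.2% higher). Cebpa, Gfi1 and Runx1 overlapped between the groups. The median log2 fold change was −0.27 over the 9 members and 0.087 over all genes tested.

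**Figure D1:**
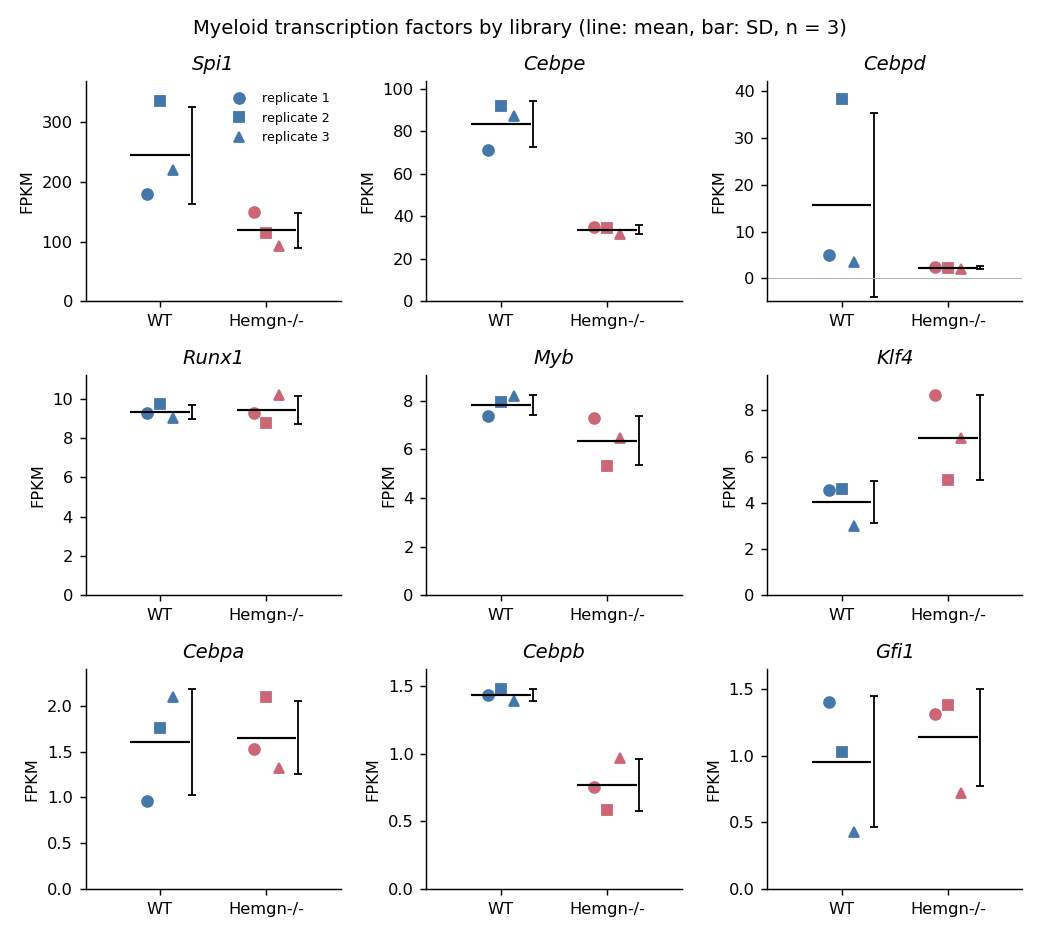
FPKM of each of the 9 members (vertical axes, each to its own scale) in the 3 WT and 3 Hemgn-/- libraries, with 1 point per library, a line at the mean and a bar for the SD to its right. The groups are separated for Spi1, Cebpe, Cebpd, Cebpb, Klf4 and Myb, and the WT points of Cebpd are spread by WT replicate 2 at 38.3 FPKM, which takes the SD bar below 0.

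Spi1 (ENSMUSG00000002111, GRCm38 chr2:91082390-91115756, plus strand) was the most abundant of the 9 in both groups. Its level was 179, 335 and 220 FPKM in WT replicates 1, 2 and 3 and 150, 115 and 91.8 FPKM in Hemgn-/- replicates 1, 2 and 3. Every Hemgn-/- library lay below every WT library, but the highest Hemgn-/- and the lowest WT value were close, and WT replicate 2 was well above the other WT libraries. The mean fell from 245 ± 81.1 to 119 ± 29.5 FPKM (SD, n = 3 each). The log2 fold change was −1.01 ± 0.24 (SE; adjusted p = 0.0399, limma with Benjamini-Hochberg adjustment). Leaving out WT replicate 2 gave a log2 fold change of −0.76 and an adjusted p of 0.0627, and the limma adjusted p was also above 0.05 without WT replicate 3 (0.0923), Hemgn-/- replicate 2 (0.110) or Hemgn-/- replicate 3 (0.138). Spi1 stayed below 0.05 without WT replicate 1 (0.0344) or Hemgn-/- replicate 1 (0.0340), and its direction was the same with any library left out.

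Cebpe (ENSMUSG00000052435, GRCm38 chr14:54710360-54712174, minus strand) had the smallest p-value of the 9. Its level was 71.0, 91.6 and 87.2 FPKM in WT and 35.0, 34.6 and 31.5 FPKM in Hemgn-/- replicates. The Hemgn-/- libraries were nearly alike, and all of them lay far below the lowest WT library. The mean fell from 83.3 ± 10.9 to 33.7 ± 1.95 FPKM (SD, n = 3 each), a 2.47-fold lower level with a log2 fold change of −1.27 ± 0.11 (SE; adjusted p = 0.000364, limma with Benjamini-Hochberg adjustment). By p-value Cebpe ranked 42 among the 13739 genes tested. Its log2 fold change stayed between −1.38 and −1.20 with each library left out, and no exon of another gene overlapped its exons in the annotation. Because neutrophil marker RNA was also lower in Hemgn-/- libraries, Cebpe was set against the summed FPKM of the 17 markers in the same library, a comparison added after seeing the data. Ngp alone made up 47.4% to 56.2% of that sum. Per 1000 FPKM of those markers, Cebpe stood at 0.875, 1.151 and 1.02 FPKM in WT and at 0.660, 0.589 and 0.563 FPKM in Hemgn-/- libraries. On this scale the groups did not overlap, with a log2 difference of −0.74 (exact permutation test, two-sided p = 0.1, the smallest that 3 against 3 libraries allow). The share of all genes without overlap on this scale was not determined. The markers include granule genes listed below as targets of the members, among them Camp, Ngp and Elane. The ratio is therefore not a measure of Cebpe per neutrophil, and whether Cebpe fell beyond the cell mix was not tested. With Ngp left out of the sum the log2 difference of Cebpe was −0.93, again without overlap (exact permutation p = 0.1). Spi1 on the same scale was 2.21, 4.21 and 2.57 FPKM in WT and 2.83, 1.95 and 1.64 FPKM in Hemgn-/- libraries, and here the groups overlapped (log2 difference −0.47, exact permutation p = 0.3).

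**Figure D2:**
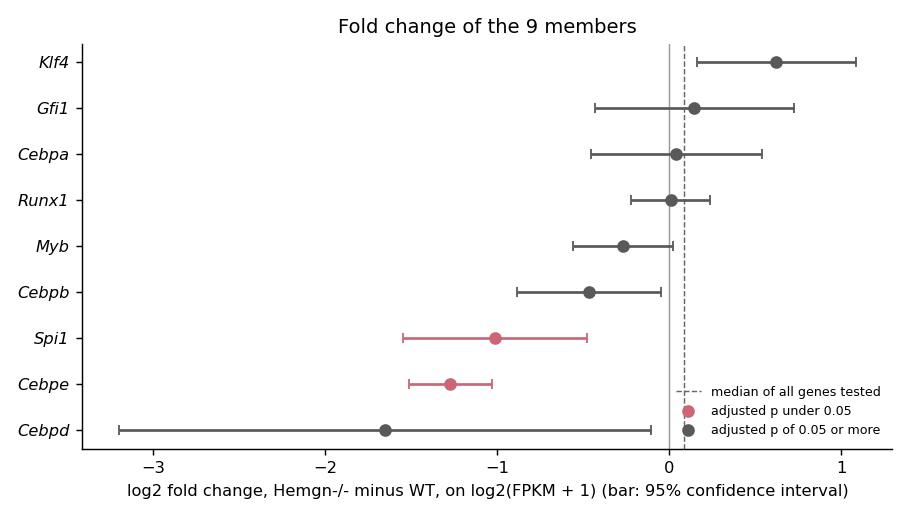
Log2 fold change (Hemgn-/- minus WT, horizontal axis, on log2(FPKM + 1)) of the 9 members, with bars for the 95% confidence interval from limma and a dashed line at the median of all genes tested (0.087). Spi1 and Cebpe, in colour, have an adjusted p under 0.05, and Cebpd has the most negative estimate but also the widest interval, from −3.20 to −0.11.

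Cebpd (ENSMUSG00000071637, GRCm38 chr16:15887286-15891031, plus strand) was dominated by a single library. WT replicates 1, 2 and 3 gave 4.97, 38.3 and 3.53 FPKM, Hemgn-/- replicates 1, 2 and 3 gave 2.54, 2.29 and 1.94 FPKM, and the WT values stood for 441, 3672 and 367 fragments. WT replicate 2 was 6.58-fold above the next library on the FPKM + 1 scale, the largest such excess of any gene tested in that library. The log2 fold change was −1.65 ± 0.68 (SE; adjusted p = 0.204, limma with Benjamini-Hochberg adjustment), and leaving out WT replicate 2 gave −0.68 with an adjusted p of 0.0778. All WT libraries remained above all Hemgn-/- libraries in either case. The exons of Cebpd overlap 562 bases of Spidr on the opposite strand, which reached 16.9 FPKM, and the sources used here do not give whether counting used strand.

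Cebpb (ENSMUSG00000056501, GRCm38 chr2:167688915-167690418, plus strand) was low, at 1.43, 1.48 and 1.39 FPKM in WT and 0.75, 0.58 and 0.97 FPKM in Hemgn-/- libraries. These values stood for 51, 57 and 58 fragments against 31, 23 and 42. The WT libraries were nearly identical and the Hemgn-/- libraries all lay below them, but the log2 fold change of −0.47 ± 0.18 (SE) did not pass (adjusted p = 0.189, limma with Benjamini-Hochberg adjustment). The scale of log2(FPKM + 1) understates changes at such levels, and with a pseudocount of 0.1 the log2 fold change was −0.85. Its exons overlap 312 bases of Tmem189 on the opposite strand, which reached 9.44 FPKM.

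Cebpa (ENSMUSG00000034957, GRCm38 chr7:35119293-35121928, plus strand) was near Cebpb in level in WT libraries and did not separate the groups. It was at 0.96, 1.76 and 2.09 FPKM in WT and 1.53, 2.10 and 1.33 FPKM in Hemgn-/- libraries. The log2 fold change was 0.04 with a 95% confidence interval from −0.46 to 0.54 (adjusted p = 0.937, limma with Benjamini-Hochberg adjustment), and its sign turned to −0.022 under median-ratio scaling and −0.029 under quantile normalization.

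Added over the 4 genes, C/EBP transcript was at 78.3, 133 and 94.2 FPKM in WT and 39.9, 39.6 and 35.7 FPKM in Hemgn-/- libraries. Cebpe made up most of it in every library, with 90.6%, 68.8% and 92.5% in WT and 87.9%, 87.4% and 88.1% in Hemgn-/- libraries. The low share in WT replicate 2 went with the Cebpd excess, since Cebpd made up 28.8% of the sum there and 3.75% to 6.37% elsewhere. Cebpa, the factor of the commitment step, made up 1.23%, 1.32% and 2.22% in WT and 3.85%, 5.31% and 3.71% in Hemgn-/- libraries, so its share was higher in every Hemgn-/- library although its level was not.

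**Figure D3:**
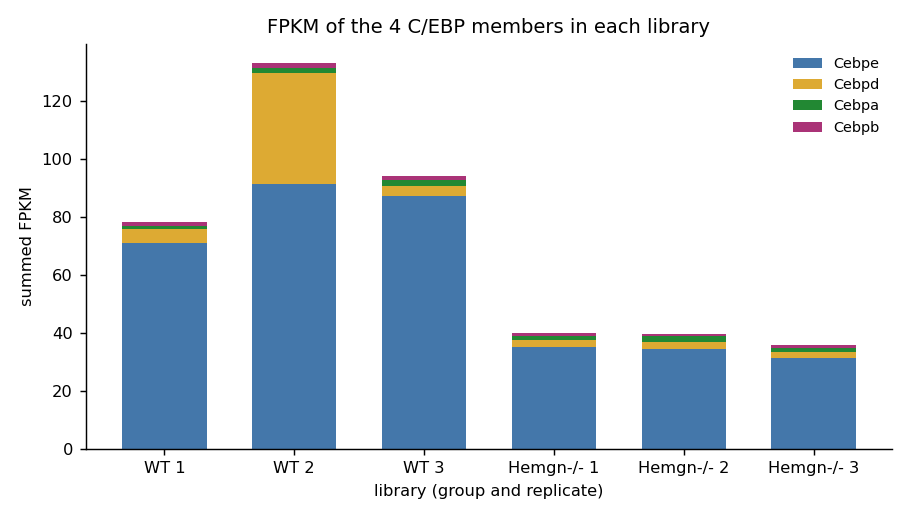
Summed FPKM of Cebpe, Cebpd, Cebpa and Cebpb (stacked bars from 0, vertical axis) in each of the 6 libraries. Cebpe fills most of every bar, the 3 Hemgn-/- bars reach 35.7 to 39.9 FPKM and the WT bars 78.3 to 133 FPKM, and the tall Cebpd segment is in WT replicate 2.

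Ratios between members within a library do not depend on scaling between libraries, and 7 such ratios were compared. The ratio of Cebpe to Cebpa was 73.8, 51.9 and 41.6 in WT and 22.8, 16.5 and 23.7 in Hemgn-/- libraries, a log2 difference of −1.39. The ratio of Spi1 to Myb was 24.3, 42.2 and 26.8 against 20.6, 21.5 and 14.2 (log2 difference −0.71), and that of Klf4 to Myb was 0.616, 0.577 and 0.367 against 1.19, 0.939 and 1.05 (log2 difference 1.06). The ratio of Cebpd to Cebpa differed by −2.05, but by −1.10 without WT replicate 2, and its lowest WT value of 1.69 was just above its highest Hemgn-/- value of 1.65. These 4 ratios separated the groups fully, each at the smallest two-sided p of the exact permutation test, 0.1, which is 0.175 after Benjamini-Hochberg adjustment over the 7. The groups overlapped for Cebpb to Cebpa (−1.02, exact p = 0.2), Spi1 to Gfi1 (−1.37, exact p = 0.2) and Cebpa to Runx1 (0.08, exact p = 0.9), which were 0.233, 0.233 and 0.9 after adjustment.

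Klf4 (ENSMUSG00000003032, GRCm38 chr4:55527143-55532466, minus strand) had higher values in Hemgn-/- libraries. It was at 4.55, 4.59 and 3.01 FPKM in WT and 8.68, 5.0 and 6.79 FPKM in Hemgn-/- libraries. The lowest Hemgn-/- library was just above the highest WT libraries. The mean was 4.05 ± 0.901 FPKM in WT and 6.82 ± 1.84 FPKM in Hemgn-/- libraries (SD, n = 3 each), and the log2 fold change of 0.62 ± 0.20 (SE) did not pass over all genes (adjusted p = 0.119, limma with Benjamini-Hochberg adjustment). Klf4 lies on the same chromosome as Hemgn, 9.11 Mb away.

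Gfi1 (ENSMUSG00000029275, GRCm38 chr5:107716657-107726036, minus strand) had the lowest mean of the 9 in WT libraries. It was at 1.41, 1.03 and 0.43 FPKM in WT and 1.31, 1.38 and 0.72 FPKM in Hemgn-/- libraries, or 38 to 106 fragments against 66 to 115. The groups overlapped, with a log2 fold change of 0.15 and a 95% confidence interval from −0.43 to 0.72 (adjusted p = 0.783, limma with Benjamini-Hochberg adjustment).

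Runx1 (ENSMUSG00000022952, GRCm38 chr16:92601466-92826149, minus strand) had nearly the same mean in both groups. It was at 9.26, 9.73 and 9.05 FPKM in WT and 9.28, 8.78 and 10.2 FPKM in Hemgn-/- libraries, with 2634 to 3546 fragments behind each value. The log2 fold change of 0.0087 had a 95% confidence interval from −0.22 to 0.24 (adjusted p = 0.972, limma with Benjamini-Hochberg adjustment), which is narrow beside those of the other overlapping members, and its sign turned to −0.084 under median-ratio scaling and −0.068 under quantile normalization.

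Myb (ENSMUSG00000019982, GRCm38 chr10:21124935-21160984, minus strand) was at 7.38, 7.95 and 8.18 FPKM in WT and 7.31, 5.32 and 6.45 FPKM in Hemgn-/- libraries. The groups did not overlap, but the highest Hemgn-/- library nearly met the lowest WT library. The log2 fold change was −0.27 ± 0.13 (SE; adjusted p = 0.265, limma with Benjamini-Hochberg adjustment). Exons of Myb, Runx1, Gfi1 and Cebpa overlap 51 to 559 bases of noncoding or antisense genes on the opposite strand (Gm26577, Gm26626, A430072P03Rik and Gm45091), whose reads cannot be told apart there without strand.

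FPKM is per length, and fragments came out whole with the joined exons of all transcripts of a gene. That length was 12025 bases for Runx1, with 7 transcripts, and 1241 bases for Cebpe, with 1. Levels can thus be ordered between genes only roughly, since FPKM adjusts neither for which transcripts were expressed nor for base composition. G and C made up 71.8% of the coding bases of Cebpa, 73.3% of Cebpb and 62.3% of Cebpe. Any effect of the transcripts expressed or of base composition on the order or on the C/EBP shares was not tested. In WT libraries the order by mean FPKM was Spi1 (245), Cebpe (83.3), Cebpd (15.6), Runx1 (9.35), Myb (7.84), Klf4 (4.05), Cebpa (1.61), Cebpb (1.43) and Gfi1 (0.955). The place of Cebpd rests on WT replicate 2, and its range overlapped that of Runx1, as did those of Cebpa and Cebpb and of Cebpb and Gfi1. In Hemgn-/- libraries the order was Spi1 (119), Cebpe (33.7), Runx1 (9.42), Klf4 (6.82), Myb (6.36), Cebpd (2.26), Cebpa (1.65), Gfi1 (1.14) and Cebpb (0.767), and here Klf4 and Myb overlapped, as did the neighbours from Cebpd down to Cebpb. Spi1 and Cebpe were first and second in both groups without overlap.

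**Figure D4:**
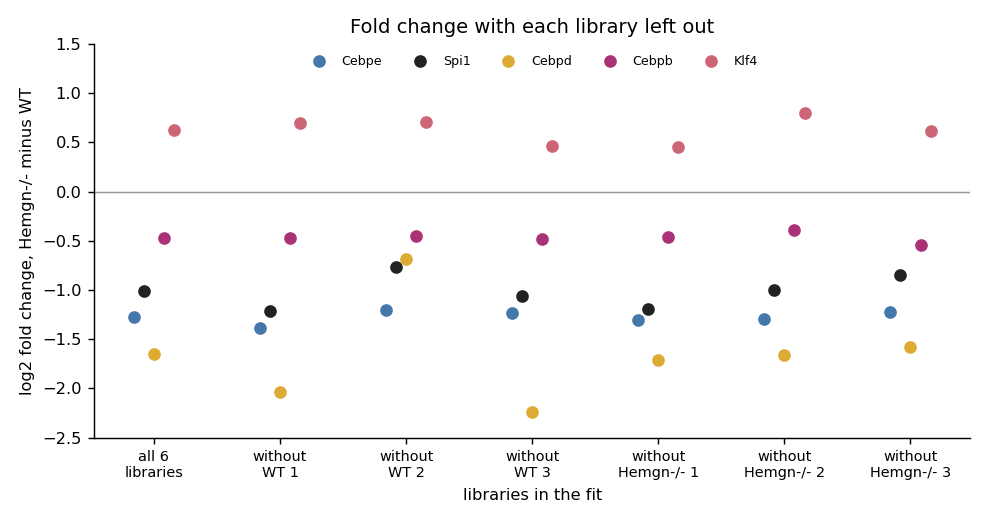
Log2 fold change (Hemgn-/- minus WT, vertical axis, on log2(FPKM + 1)) of Cebpe, Spi1, Cebpd, Cebpb and Klf4 in fits of all 6 libraries or of 5, the omitted one named on the horizontal axis. Each gene keeps its sign, Cebpe stays between −1.38 and −1.20, and Cebpd moves to −0.68 without WT replicate 2.

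The genes whose pattern over the 6 libraries was most like that of Cebpe, among 6293 genes with a mean of at least 5 FPKM, were Gm47283, Tpm3 and Pgp, with root mean square differences of 0.115, 0.119 and 0.123 on the centred log2 scale. Tpm3, which encodes a tropomyosin, went from a mean of 306 FPKM in WT to 117 FPKM in Hemgn-/- libraries. Those most like Spi1 were H1f0, a linker histone gene, Timm29 and Rac1, a GTPase gene, with differences of 0.0894, 0.157 and 0.163.

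Partners and cofactors passed the test at a share near that of all genes. Of 25 listed genes, among them Cbfb (the partner of Runx1), Trib1 and Trib2 (which target C/EBPα for degradation) and Kdm1a (a corepressor used by Gfi1), 24 were tested, 0 were higher (2 at an unadjusted p under 0.05, limma) and 1, Cbfa2t2, was lower (3 at an unadjusted p under 0.05), against 4.37% and 2.09% of all genes tested. The count was 0 without Hemgn-/- replicate 3. Cbfa2t2, a corepressor gene of the ETO family, was at 5.15, 6.14 and 7.82 FPKM in WT and 2.99, 3.07 and 2.37 FPKM in Hemgn-/- libraries (log2 fold change −0.94 ± 0.16, SE; adjusted p = 0.0117, limma with Benjamini-Hochberg adjustment). The median log2 fold change of the list was 0.059.

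Of 32 other myeloid transcription factors tested, 4 were higher, 0 were lower (1 at an unadjusted p under 0.05, limma) and 28 did not pass, where 4.37% of all genes were higher and 2.09% lower. The median was 0.091, close to the 0.087 of all genes, and the count was 2 without WT replicate 3, Hemgn-/- replicate 2 or Hemgn-/- replicate 3. The higher ones were Egr1, Irf8, Rara and Egr2. Irf8, a factor of monocyte and dendritic cell development, was at 39.7, 39.4 and 38.5 FPKM in WT and 64.6, 68.1 and 67.4 FPKM in Hemgn-/- libraries (log2 fold change 0.75 ± 0.07, SE; adjusted p = 0.000657, limma with Benjamini-Hochberg adjustment). Egr1, an immediate early gene, was at 130, 135 and 134 FPKM against 245, 246 and 239 FPKM (0.87 ± 0.06, SE; adjusted p = 0.000105, limma). Replicates of both genes were close together and the groups far apart. Irf8 also marks plasmacytoid dendritic cells, whose 10 markers summed to 355 to 357 FPKM in WT and 457 to 536 FPKM in Hemgn-/- libraries. Irf8 itself is 1 of these 10 markers, and Spib, which is not particular to those cells, is another. The sum is therefore not separate from the Irf8 difference, and the part of those cells in that difference was not tested.

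Genes known as targets of the members were taken in 3 lists. Of 14 granule protein genes, 9 were lower and 0 higher (also 0 higher at an unadjusted p under 0.05, limma; 5 lower without Hemgn-/- replicate 3), against 2.09% and 4.37% of all genes, with a median log2 fold change of −0.54. Camp, a secondary granule gene known to depend on C/EBPε, was at 4208, 3441 and 4478 FPKM in WT and 1881, 2336 and 2196 FPKM in Hemgn-/- libraries (−0.92 ± 0.11, SE; adjusted p = 0.00257, limma with Benjamini-Hochberg adjustment). The groups of Camp were wide apart, as were those of Ngp, another secondary granule gene, at 43176 to 46692 FPKM against 26488 to 27961 FPKM. Elane, the neutrophil elastase gene of the primary granules, was at 289, 305 and 313 FPKM against 166, 197 and 185 FPKM (−0.73 ± 0.08, SE; adjusted p = 0.00148, limma), and Ms4a3, a marker of granulocyte-monocyte progenitors, was also lower (−0.76 ± 0.14, SE; adjusted p = 0.0163, limma). Of the 14 genes, 12 are also on another of the lists, mostly that of neutrophil markers, so the count is not separate from the lower neutrophil marker sum.

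Of 10 myeloid cytokine receptor genes, 4 were higher and 0 lower (also 0 lower at an unadjusted p under 0.05, limma), with a median of 0.40. Among all genes tested, 4.37% were higher and 2.09% lower. The receptor count was 2 under median-ratio scaling, 0 without a variance trend or without Hemgn-/- replicate 3, and 1 without WT replicate 3 or Hemgn-/- replicate 2. The 4 genes were Il3ra (0.61), Csf1r (0.50), Csf2rb (0.45) and Csf3r (0.37), the last of which encodes the G-CSF receptor and was at 195, 173 and 177 FPKM in WT and 227, 237 and 241 FPKM in Hemgn-/- libraries. Each of these 4 had non-overlapping groups, where 19.2% of all genes tested were higher without overlap. Of 18 monocytic and phagocyte genes, 3 were higher (Ccr2, F13a1 and Ctss) and 1 was lower (Cybb), with a median of 0.13. The shares of all genes were again 4.37% and 2.09%. Ccr2, a chemokine receptor gene of inflammatory monocytes, was at 16.4, 15.3 and 15.5 FPKM against 35.2, 28.2 and 34.6 FPKM (1.00 ± 0.10, SE; adjusted p = 0.0014, limma with Benjamini-Hochberg adjustment). A further list of 14 monocyte and macrophage markers, some of them also among these 18, summed to 476 to 537 FPKM in WT and 438 to 513 FPKM in Hemgn-/- libraries. These ranges overlap, but Ly6c2 alone was at 269 to 327 FPKM in WT and 217 to 296 FPKM in Hemgn-/- libraries, so the sum rests largely on it. Of the 14 genes, 4 were higher and 2 lower.

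**Figure D5:**
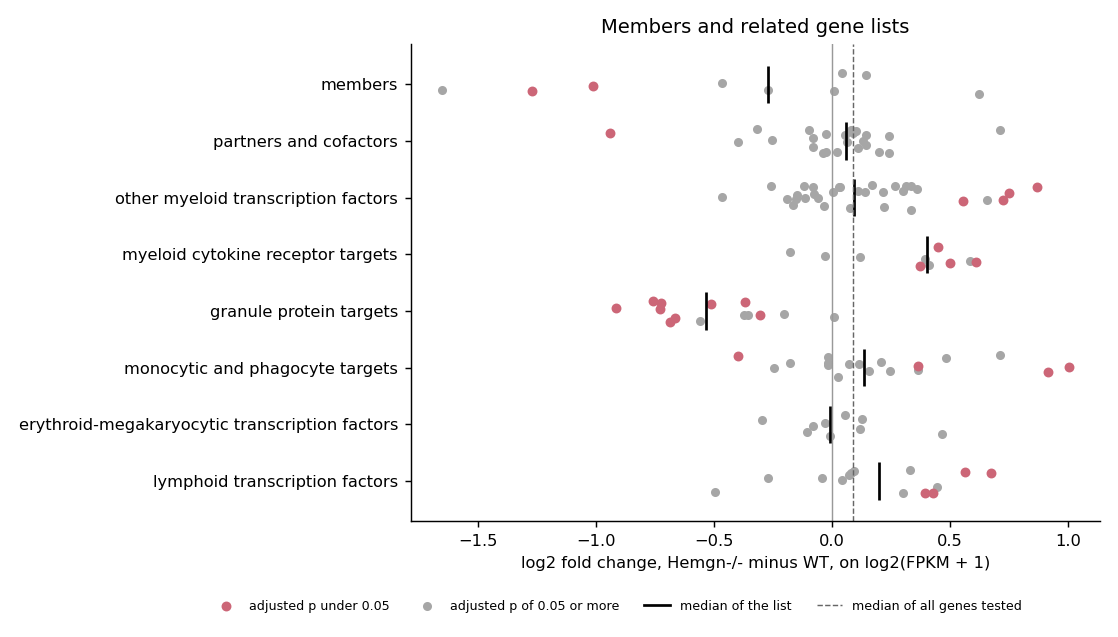
Log2 fold change (Hemgn-/- minus WT, horizontal axis, on log2(FPKM + 1)) of each tested gene in the 9 members and 7 related lists, 1 point per gene with random vertical offset, coloured at an adjusted p under 0.05, with a black line at each list's median and a dashed line at the median of all genes. Granule protein genes lie to the left (median −0.54) and myeloid cytokine receptor genes to the right (median 0.40).

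Promoter windows from RefSeq (GRCm38.p6, the 250 bases before each transcript start) were matched for 6 of the 9 members, in 8 windows. They were searched on both strands for a STAT element (TTCNNNGAA), a C/EBP element (TTGCNNAA), the PU box bound by PU.1 (GAGGAA) and a RUNX element (TGTGGT). The STAT and RUNX letters were found in 0 of the 8, against 7.02% and 14.0% of all 32851 windows. The C/EBP letters were found in 1 window of Gfi1 and the PU box letters in 1 window of Runx1, against 9.56% and 23.3% of all windows, and the matches lay in different windows. With 8 windows, counts of 0 or 1 cannot be told from these shares. G and C made up 45.6% to 81.6% of the bases in the 8 windows, against a median of 52.4% over all windows. Any effect of this on the matches was not tested. A match is a description of these letters only, and Spi1, Cebpd and Cebpe were not searched.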

How the data were processed

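FPKM values of each gene and library were deposited by the authors, and no count table was used here. The submitters' processing notes name HISAT2 2.1.0, Bowtie2 2.2.3, TopHat2 and HTSeq 0.6.0 and the build GRCm38, without roles. The annotation is not given in the sources used here. The design text names Smart-Seq2 cDNA, the labels a TruSeq kit. Columns not mapped to a sample numbered 0.

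Identifiers were matched to GENCODE M21 (24921 of 24965). Depth was recovered from FPKM steps and exon lengths: 95.4% of the 13484 genes that never exceeded 100 fragments were whole to within 0.02 fragments. Fragments of amplified cDNA are not independent molecules. Genes above 1 FPKM in any library were tested on log2(FPKM + 1) by limma 3.58.1 under R 4.3.3 (trend, no covariate, two-sided, Benjamini-Hochberg over all 13739 genes). The method was tested on simulated data with the same dispersion for every gene, which does not represent members as variable as Cebpd. Coding sequence was compared for 3 of the C/EBP genes, and some sequence is not reported here. Ratios used an exact permutation test written in Python 3.11.15 with numpy 2.4.6, and confidence intervals used t quantiles from scipy 1.17.1. Named were the members, Hemgn, up to 4 called genes per list with the largest changes, and the 3 genes most like the called members with the highest and lowest change. Kit, Ly6a, Cd34, Cd48, Mecom and Cxcr2, and the untested or uncalled list examples, were named beyond that rule as cell markers or examples, after their values were seen. Members and lists were chosen with earlier results of these data known. Alternatives covered the pseudocount, low-value filters, scaling, variance model, voom, replicate block and leaving out each library.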

Additional observations from a re-analysis of the deposited data

How the results depend on the processing

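Cebpe kept its direction and its call under all 15 other settings of the fit (log2 fold change −1.38 to −1.19, adjusted p 0.00011 to 0.0098, limma with Benjamini-Hochberg adjustment). Relative to the neutrophil markers it was −0.74 (exact p = 0.1) and Spi1 −0.47 (exact p = 0.3), or −0.93 and −0.65 (the same p-values) with Ngp left out of the sum, which with 3 libraries a group cannot pass 0.05. Spi1 stayed at −1.01 but lost its call with all genes above 0 FPKM tested (adjusted p 0.151) and without a variance trend (0.112), both limma, and ranged from −1.21 to −0.76 with 1 library left out. Members called then numbered 1 under both of these settings and 1 to 2 with a library left out. Genes called over the whole table, 887 here, numbered 466 with all genes above 0 FPKM, 390 without a trend, 1065 with voom on recovered fragments and 373 to 688 with a library left out. Scaling moved the split of higher and lower calls from 600 and 287 to 342 and 387 (median-ratio), 368 and 346 (quantile) and 1062 and 238 (same FPKM total). The cause was not tested.

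Cebpa turned to −0.022 (median-ratio) and −0.029 (quantile) and ranged from −0.15 to 0.18 with a library left out. Runx1 turned to −0.084 and −0.068 and ranged from −0.045 to 0.054, Gfi1 from −0.064 to 0.31, and the Cebpa to Runx1 log2 ratio from −0.25 to 0.33. Hemgn stayed at −1.37 with all genes above 0 FPKM (adjusted p 0.0613, limma) and ranged from −1.58 to −1.20 with a library left out, losing its call without WT replicate 3 (adjusted p 0.0503, limma). In the lists, all genes above 0 FPKM gave 0 partners, 2 other myeloid factors and 2 granule genes called. Without a trend there were 2 other myeloid factors, 0 receptors, 4 granule and 2 monocytic genes, under the same FPKM total 2 partners and 7 monocytic genes, with voom 2 partners, and under median-ratio scaling 2 receptors. With a library left out the counts were 0 to 1 partners, 2 to 3 other myeloid factors, 0 to 3 receptors, 5 to 8 granule genes and 3 to 5 monocytic genes.

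Same-numbered libraries did not deviate together (correlations −0.043, −0.0094 and 0.011). The labels give them only a shared number, and these correlations cannot exclude a shared sort or preparation. With the replicate number as a block, 636 genes were called, and Spi1 (adjusted p 0.0482) and Cebpe (0.00184, limma) stayed called. No other member's call changed. The smallest p of the paired ratio test was 0.25. Cebpa, Cebpb and Gfi1 rest on at most 153 fragments a library, which limits what these libraries can show about them.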

Other observations

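Transcription factors of other lineages gave these values, where 4.37% of all genes tested were higher and 2.09% lower. Of 9 erythroid and megakaryocytic factor genes tested, 0 were called in either direction in the main limma fit (1 at an unadjusted p under 0.05, median log2 fold change −0.0095). The count was 1 with voom and 1 under the same FPKM total. Of 14 lymphoid factor genes tested, 4 were higher (Spib, Tbx21, Id3 and Pou2af1) and 0 lower (1 at an unadjusted p under 0.05, limma), with a median of 0.20. The count was 1 under median-ratio scaling, without a variance trend or without WT replicate 1, WT replicate 3, Hemgn-/- replicate 2 or Hemgn-/- replicate 3, and 2 under quantile normalization, with the replicate block or without WT replicate 2. Spib, a relative of Spi1 expressed in B cells and plasmacytoid dendritic cells, was at 146, 160 and 130 FPKM in WT and 217, 251 and 227 FPKM in Hemgn-/- libraries, opposite in direction to Spi1.

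The remaining marker lists moved as follows, where 4.37% of all genes tested were higher and 2.09% lower. B cell markers summed to 2183 to 2306 FPKM in WT and 2575 to 2823 FPKM in Hemgn-/- libraries, with 5 of 11 genes higher, a count that was 2 under median-ratio scaling or the replicate block, 1 without a variance trend and 2 to 3 with any library left out. T and NK cell markers summed to 266 to 277 FPKM against 305 to 348 FPKM, with 4 of 11 higher, and 2 with voom, without a variance trend or without WT replicate 1, WT replicate 3 or Hemgn-/- replicate 3. Of 10 plasmacytoid dendritic cell markers, 4 were higher, among them Irf8 and Spib, which are also on the lists of transcription factors. Erythroid markers summed to 495 to 581 FPKM against 61.9 to 85.2 FPKM, with 5 of 8 tested genes lower. Eosinophil, basophil and mast cell markers summed to 744 to 849 FPKM against 590 to 611 FPKM, with 3 of 9 lower, all of them eosinophil granule genes (Epx, Prg2 and Prg3). Of 14 monocyte and macrophage markers, 4 were higher and 2 lower, and 3 were called in all without a variance trend or without WT replicate 1 or Hemgn-/- replicate 3. Endothelial markers summed to 42.7 to 46.0 FPKM against 30.6 to 40.5 FPKM, with 0 of 8 tested genes called by limma (3 at an unadjusted p under 0.05) and 2 called with voom, and 1 was called without WT replicate 2 or Hemgn-/- replicate 1.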
